A study of Mus musculus with 66 samples.

Results

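H3K9me3, the tri-methylation of lysine 9 of histone H3, was compared between ethanol-treated and water-treated adolescent mice over all pools of prefrontal cortex (PFC) together. The libraries were chosen by their titles: all 22 H3K9me3 libraries among the 66 samples of the series, 12 from ethanol pools and 10 from water pools. They were fitted in a single model with sex as a blocking term. Mice were of the inbred strain DBA/2J, of both sexes, with no transgene or deletion. Mice were gavaged on 8 days from postnatal day (PND) 29 to PND 42 with ethanol (4 g/kg, 25% w/v) or with water, and PFC was dissected 24 h after dosing ended. A pool combined 3 mice that shared sex and treatment, and each sex had 6 ethanol and 5 water pools. A pool averages its mice and all PFC cell types, so a change in the mark within cells and a change in the cell types present cannot be told apart.

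The measured units were regions of the genome. Each library came as a list of islands, which are runs of 200 bp windows where ChIP reads exceed a background. A region was a run of windows on chromosomes 1 to 19 that lay in an island in all 22 libraries. There were 26958 such regions, which covered 37.6 Mb, or 11.4% of the genome length that was in an island of at least 1 library. Regions were 200 to 76800 bp long, with a median of 1200 bp. Of these, 24743 regions had enough reads to be tested.

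H3K9me3 is the mark of constitutive heterochromatin. It is written by SETDB1, SUV39H1 and SUV39H2, is bound by HP1 proteins, and keeps repeats silent, above all LINE-1 elements and endogenous retroviruses. SETDB1 is brought to such repeats by KRAB zinc-finger proteins, whose own gene clusters also carry the mark. In olfactory neurons the mark also covers the silent olfactory receptor genes.

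The shared regions were made up largely of repeats. Repeat-masked bases made up 91.4% of their length, against 33.5% of the autosomes in GRCm38, and 67.8% of regions were at least 99% repeat. Their GC content was 38.3%, against 41.9% of the autosomes, and 16.5% of their length lay in protein-coding gene bodies, against 40.3%. To show which repeat this was, the 30-base word found in most regions was taken, then the word found in most of the remaining regions, and so on to 5 words. They are printed 5′ to 3′ in capitals, on the strand with the longer open reading frame, because they identify the sequence that the measured regions share.
word 1: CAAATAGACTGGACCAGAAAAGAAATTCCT
word 2: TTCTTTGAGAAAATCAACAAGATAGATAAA
word 3: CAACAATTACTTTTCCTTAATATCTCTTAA
word 4: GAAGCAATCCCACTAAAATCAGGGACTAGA
word 5: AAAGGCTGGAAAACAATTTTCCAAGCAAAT
At least 1 of the 5 words was in 14664 regions (54.4%), and all 5 were in 351. Word 1 was in 7086 regions (26.3%), and 55.6% of its 12763 autosomal copies lay in shared regions, which cover 1.57% of the autosomes. Word 3 was in 25.6% and word 5 in 26.1% of regions, with 63.0% and 57.5% of their copies in shared regions. Of the copies of word 1, 6715 lay in an open reading frame of at least 300 codons on the printed strand and 1 on the other strand. From general knowledge of mouse LINE-1 proteins, and not checked against a repeat annotation, word 1 was assigned to ORF1, which encodes the RNA-binding protein of the element, and words 2 to 5 to ORF2, which encodes its endonuclease and reverse transcriptase. Counts of LINE-1 words below rest on that assignment. The words were matched on both strands with no mismatch, so older copies were missed.

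The 22 libraries differed in depth and enrichment before any comparison. ChIP reads in islands ranged from 4.79 to 13.16 M, and 29.2 to 46.8% of them lay in shared regions. Male ethanol replicate 4 was the deepest, with 2.33 ChIP reads per input read in shared regions, where the other libraries had at most 1.51. Scaled by library totals, ChIP over input in shared regions was 0.891 in female water replicate 2 and 1.15 to 1.44 in the other 21 libraries. Most islands (59.9%) of female water replicate 2 had a false discovery rate (FDR) over 0.05. The share of variance on the first principal component was 7.77%, and male ethanol replicate 1 (17.7) and female water replicate 4 (21.4) stood apart on it from the remaining libraries, which lay between -8.29 and 6.04. Ethanol and water libraries overlapped on each of the first 3 components.

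The first question was whether H3K9me3 library levels differed between ethanol and water pools. These levels vary with depth and enrichment, so they cannot give the overall amount of the mark. Ethanol libraries had more islands, but no library level differed after adjustment. Ethanol pools had 51549 ± 6132 islands (SD, n = 12), and water pools 45874 ± 6555 (n = 10). Ethanol libraries had between 43377 and 64381 islands (median 50851) and water libraries between 34359 and 55670 (median 45507), so the groups overlapped. The difference of 5674 islands had p = 0.0507 in a two-sided exact permutation test with treatment permuted within each sex, and an adjusted p of 0.355 over the 7 levels compared. Leaving out each library gave 4395 islands without female water replicate 2 (permutation p = 0.112) to 6763 without female water replicate 5 (permutation p = 0.0185, adjusted p = 0.130).

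Islands covered 156 ± 20.5 Mb in ethanol pools and 147 ± 21.1 Mb in water pools (permutation p = 0.273), and the difference of 9.25 Mb was 4.70 Mb without female water replicate 2. Of the ChIP reads in islands, 35.8 ± 3.73% lay in shared regions with ethanol and 37.6 ± 4.52% with water (permutation p = 0.282), and the difference of -1.83 points was -0.821 without female water replicate 2. The share of island length in gene bodies was nearly constant, at 17.4 ± 0.226% with ethanol and 17.6 ± 0.282% with water (permutation p = 0.193). The difference in this share was -0.144 points, and -0.0830 without female water replicate 2. ChIP over input in shared regions, scaled by library totals, was 1.27 ± 0.0877 with ethanol and 1.26 ± 0.161 with water, and the difference of 0.0113 changed sign to -0.0296 without female water replicate 2. The plot of library levels shows these values by sex.

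**Figure D1:**
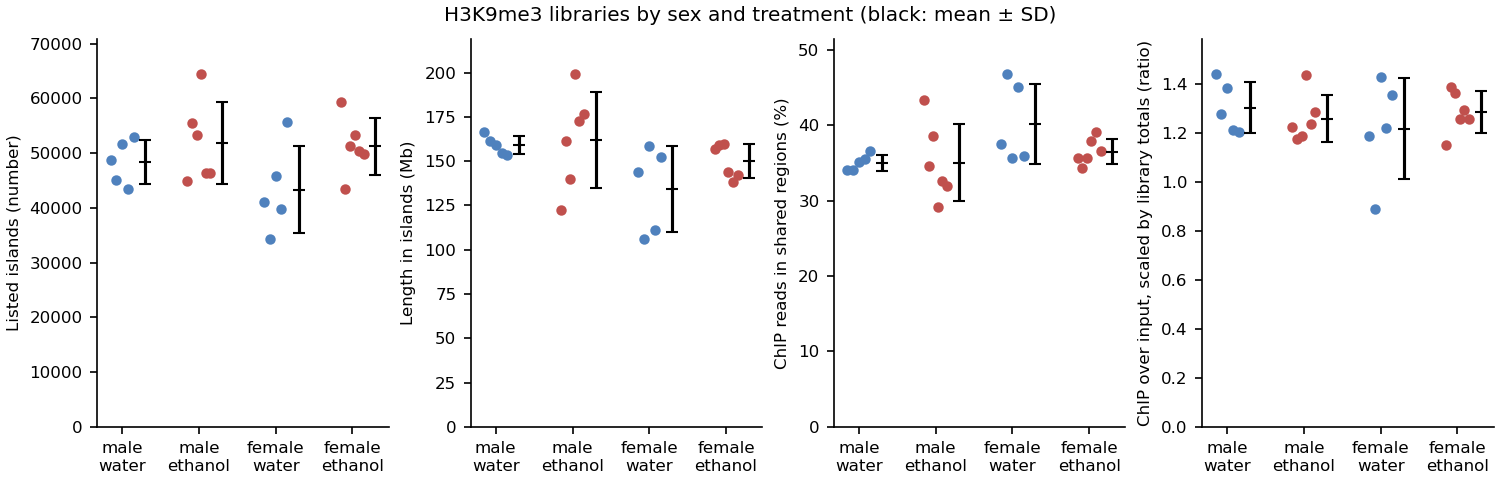
H3K9me3 library levels by sex and treatment: number of islands, Mb in islands, percent of ChIP reads in shared regions and ChIP over input of shared regions scaled by library totals. Each point is a pool (6 ethanol and 5 water per sex), black marks are mean ± SD, and the point at 0.891 is female water replicate 2.

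Islands gained or lost outright were few. Over the autosomes, 14 windows in 8 runs (2.8 kb) were in an island of all 12 ethanol libraries and at most 2 water libraries. The reverse, all 10 water and at most 2 ethanol libraries, held for 3 windows (0.6 kb). No window was covered in all libraries of a group and in none of the other.

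Within shared regions, H3K9me3 was then compared by edgeR's quasi-likelihood test. TMM scaling sets the median log2 fold change near 0 (0.00 here, 0.05 with libraries scaled by total aligned reads). The median size of the change was 0.05 on the log2 scale, with a median standard error (SE) of 0.09. P-values of single regions below are unadjusted. At an unadjusted p of 0.05 or lower, 575 of 24743 regions (2.32%) were called, 274 higher in ethanol (1.11%) and 301 lower (1.22%). No region passed an adjusted p of 0.05 in edgeR (lowest adjusted p 1.00), and DESeq2 gave 377 regions at the unadjusted threshold and 0 after adjustment. Called regions differed by at least 0.08 on the log2 scale, with a median of 0.18, and 11 of the 575 differed by at least 0.5. In 82.2% of tested regions the 95% interval of the log2 fold change lay within a 1.25-fold change either way, and in 99.3% within 1.5-fold. In none of the 24743 regions were all 12 ethanol pools above all 10 water pools, or all below, beside the 2.32% called.

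Counts of a region are parts of island counts, shared out by length, and vary less than whole reads would. edgeR bounds its p-value by the Poisson variance, and without that bound 1296 regions (5.24%) were called and again 0 after adjustment.

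The 19 regions described next, 10 higher and 9 lower in ethanol, are those among the 10 of smallest p-value each way that are reported here. At least 1 word was in 16 of the 19 (57.7% of all tested regions), 16 were at least 99% repeat (66.6% of all), and 4 lay in a gene body (17.3% of all). Levels are given as CPM, the reads of a region relative to all reads of its library in tested regions after TMM scaling, over 12 ethanol and 10 water pools.

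The higher region of smallest p-value was chr7:14184001-14186200, 60957 bp from the start of Sult2a3, which encodes a sulfotransferase. A stretch of it, chr7:14184764-14185063 on the plus strand of GRCm38, is printed with its LINE-1 words in capitals (as the reverse complements of words 5 and 3), because it shows 2 of the 3 copies of LINE-1 words in this region.
Sult2a3 region: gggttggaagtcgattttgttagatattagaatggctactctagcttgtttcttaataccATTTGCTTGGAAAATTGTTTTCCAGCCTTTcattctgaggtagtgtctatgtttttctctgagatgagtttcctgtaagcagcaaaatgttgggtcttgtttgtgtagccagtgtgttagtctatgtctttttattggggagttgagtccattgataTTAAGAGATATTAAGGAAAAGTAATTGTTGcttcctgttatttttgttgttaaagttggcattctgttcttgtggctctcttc
Ethanol pools had between 37.9 and 53.9 CPM there (median 45.6), and water pools between 34.4 and 42.6 (median 36.5). All 12 ethanol pools were above the water median, and 9 of the 12 were above every water pool. The log2 fold change was 0.26 (SE 0.06, edgeR p of 0.000116). It was 0.34 in males and 0.18 in females, and input reads of the region differed by 0.12 (edgeR p of 0.160).

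The next higher region, chr6:18737201-18739800, lay 108779 bp from Lsm8, a gene of the spliceosomal U6 complex. It had 36.7 to 49.9 CPM (median 44.0) in ethanol pools and 33.5 to 41.0 (median 37.9) in water pools. Here 11 of 12 ethanol pools were above every water pool, with a log2 fold change of 0.22 (SE 0.05, edgeR p of 0.000491) and an input difference of 0.07. The region chr9:90927801-90931000 near Zic4, a zinc-finger gene of the developing brain, held 4 of the 5 LINE-1 words. It had 56.8 to 74.1 CPM with ethanol and 47.4 to 64.1 with water, and its input differed as much as the ChIP reads, by 0.18 (edgeR p of 0.00936) beside 0.18.

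Of these 10 regions, 3 held no LINE-1 word, and they lay near the zinc-finger gene Zfp987, near Gm10772 and near Pcdha1, a protocadherin-alpha gene. The region chr4:146065201-146066400 near Zfp987, 41.6% repeat, had 18.8 to 40.7 CPM with ethanol (median 30.3) and 17.4 to 28.1 with water (median 23.3). The groups overlapped, 8 of 12 ethanol pools were above every water pool, and the log2 fold change was 0.35 (SE 0.10, edgeR p of 0.00165). Input reads near Zfp987 differed by 0.26 (edgeR p of 0.0730), and the difference relative to centred input was 0.14 (limma p of 0.102). Near Gm10772, chr13:66265001-66265600 was 12.2% repeat, and its log2 fold change of 0.40 (SE 0.12, edgeR p of 0.00219) was made up of 0.62 in males and 0.14 in females (edgeR interaction p of 0.0394). The region near Pcdha1 differed by 0.21 (SE 0.07), less than its input (0.27). Input reads near Gm10772 differed by 0.37 (edgeR p of 0.0477). In an intron of the olfactory receptor gene Olfr872, chr9:20245601-20249400 had 64.0 to 74.9 CPM with ethanol (median 69.3) and 55.6 to 66.4 with water (median 63.1), and 9 of 12 ethanol pools were above every water pool. The log2 fold change was 0.15 (SE 0.04) in ChIP and 0.18 in input (edgeR p of 0.0155).

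Of the 9 lower regions, chr15:68639001-68641800, 286620 bp from Khdrbs3, had the smallest p-value of all regions. Khdrbs3 encodes an RNA-binding protein that regulates splicing. The stretch chr15:68640787-68641086 (GRCm38, plus strand) is printed with its LINE-1 word in capitals (the reverse complement of word 3) for comparison with the Sult2a3 region, since both leading regions, opposite in direction, held the same word.
Khdrbs3 region: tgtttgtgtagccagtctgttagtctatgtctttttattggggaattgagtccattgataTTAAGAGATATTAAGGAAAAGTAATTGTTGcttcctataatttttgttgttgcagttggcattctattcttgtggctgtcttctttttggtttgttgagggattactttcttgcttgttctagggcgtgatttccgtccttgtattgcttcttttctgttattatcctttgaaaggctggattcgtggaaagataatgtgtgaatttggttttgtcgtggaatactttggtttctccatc
Ethanol pools had 41.7 to 51.6 CPM (median 46.5) and water pools 46.5 to 63.8 (median 54.3). Of the 10 water pools, 8 were above every ethanol pool. The log2 fold change was -0.24 (SE 0.05, edgeR p of 5.35e-05), with -0.31 in males, -0.18 in females and -0.13 in the input (edgeR p of 0.0595).

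The region chr1:142497801-142500000 lay 1140664 bp from the nearest start, that of B3galt2, a galactosyltransferase gene. It had 34.8 to 44.7 CPM in ethanol pools and 42.3 to 52.0 in water pools, and 9 of 12 ethanol pools were below every water pool. Its log2 fold change was -0.24 (SE 0.06, edgeR p of 0.000216), and its input differed by only -0.03 (edgeR p of 0.713). The region chr10:55500601-55503000 near Msl3l2 held 4 words and had 35.3 to 54.3 CPM with ethanol against 44.6 to 60.9 with water (log2 fold change -0.28, SE 0.07, edgeR p of 0.000255). In an intron of Gab2, a signalling adaptor gene, chr7:97228601-97230600 differed by -0.27 (SE 0.07, edgeR p of 0.00138) and its input by -0.18. The region near Tlr1, chr5:64943401-64946000, differed by -0.43 in males and -0.01 in females (edgeR interaction p of 0.000405, not past the adjusted threshold).

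Each of the 19 regions had the same sign in both sexes, as the choice of a small joint p-value favours. Leaving out any single library left each of the 19 at an unadjusted p of at most 0.0173. Their choice by smallest p-value over these same libraries favours that as well. The plot of the 5 leading regions each way shows every pool.

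**Figure D2:**
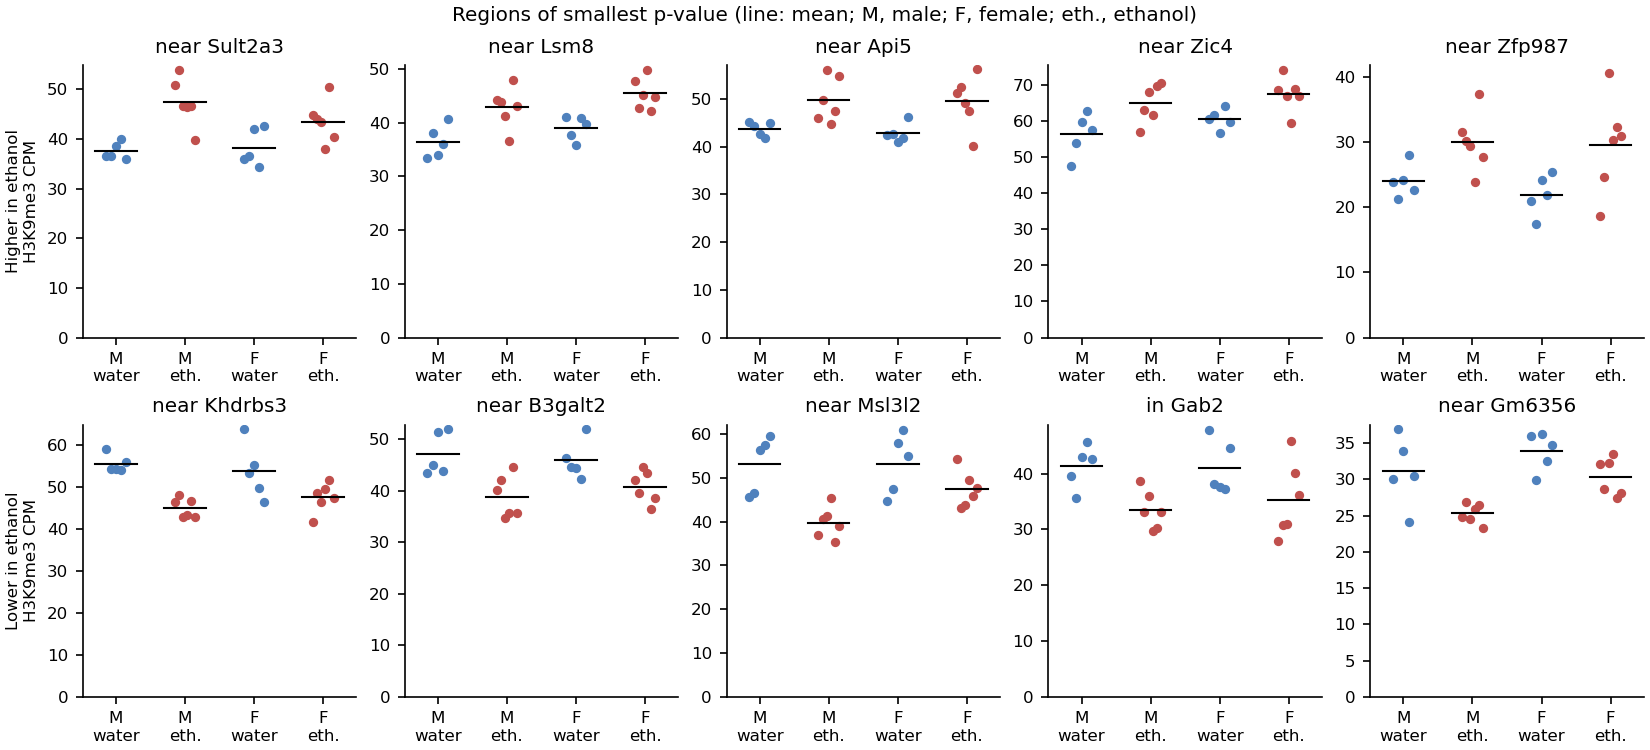
H3K9me3 CPM per pool in the first 5 of the 19 regions, by p-value, that were higher (top) and lower (bottom) in ethanol, by sex and treatment, with the mean as a line. Ethanol and water pools overlapped in each, for example 37.9 to 53.9 against 34.4 to 42.6 CPM near Sult2a3.

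Input reads bear on all calls, because ChIP and input were counted in the same islands. Input differed by treatment at an unadjusted p of 0.05 or lower in 491 of 23860 regions (2.06%), and in 0 after adjustment (edgeR; DESeq2 gave 284 and 0). Of the 567 called H3K9me3 regions with enough input reads, 487 (85.9%) differed in the same direction in the input, against 63.4% of all tested regions. Across these 567 regions the log2 fold changes of ChIP and input had a Pearson r of 0.79, and 0.48 across all regions, which share libraries and islands and are not independent. Choice by a large ChIP difference in either direction itself raises both this r and the share of the same direction. Within the 272 higher calls r was 0.69, and within the 295 lower calls it was 0.55. Input was itself called in 90 of the 567 (15.9%), 89 of them in the same direction. In 469 of the 567 the input difference was smaller than the ChIP difference, as the choice by ChIP favours (14952 of 23858 over all regions).

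After division by input reads and centring of each library, limma called 1453 regions (5.87%) at the unadjusted threshold and 0 after adjustment. Of the 567 regions, 111 were at that threshold, 107 in the same direction, and 91 had changed sign (8788 of 23858 over all regions). Among the 19 leading regions the differences relative to input were at most 0.19 on the log2 scale, 6 remained at the threshold and 5 changed sign. The 6 that remained were those near Sult2a3, Lsm8, B3galt2 and Msl3l2 and in Nlrp4b and Ccdc7a. Those that changed sign were in Olfr872 and near Pcdha1, Gm6356, Vmn2r24 and Gm49339. The plot of ChIP and input differences shows all regions.

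**Figure D3:**
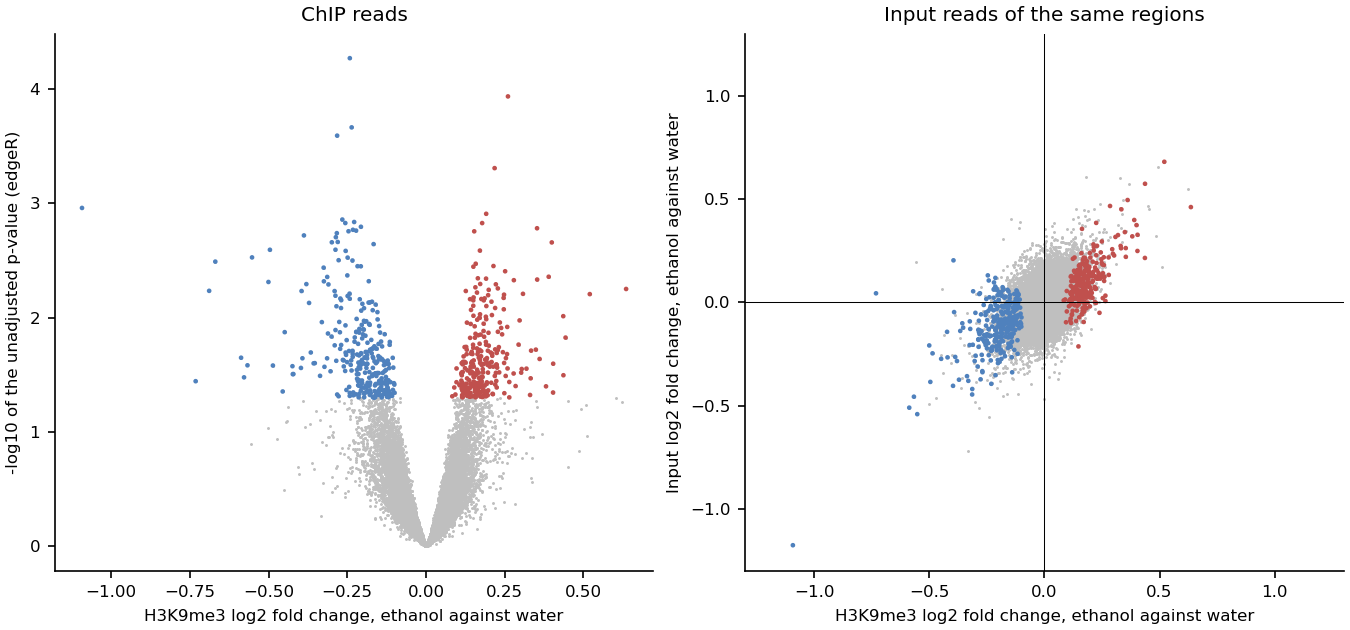
Left, H3K9me3 log2 fold change of each tested region against -log10 of its unadjusted edgeR p-value. Right, the input log2 fold change of the same regions; red and blue are the 274 higher and 301 lower regions, which lie mostly in the quadrants where both differences have the same sign.

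How the direction of a call depended on the scaling was checked as well. Higher calls made up 47.7% with TMM factors, 72.6% without them and 94.0% when libraries were scaled by their total aligned reads. They made up 99.2% when ChIP was divided by input without centring, which moved the median of all regions by 0.11 on the log2 scale. All changes here are therefore relative to the middle of the shared regions.

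Male and female responses were compared through an interaction term of treatment and sex. This term was called in 514 of 24797 regions (2.07%) and in 0 after adjustment (edgeR; DESeq2 gave 306 and 0). In 12439 of 24701 regions (50.4%) the male and the female log2 fold change had the same sign, and the values had a Pearson r of 0.02 across regions. Of these 24701 regions, 543 were at the unadjusted threshold in males and 583 in females. In 35 regions the difference was at that threshold in each sex, and in 19 of the 35 the directions were the same. Regions that share an island are not independent, and the size of this overlap was not tested.

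Groups of regions were then described by what they hold. Of the 14282 tested regions with a LINE-1 word, 358 (2.51%) were called, 179 in each direction, and the median log2 fold change was 0.00. Regions without a word had 217 of 10461 (2.07%), 95 higher and 122 lower. With the number of words the called share went from 1.68% (1 word) to 4.27% (all 5), and median region length from 1000 to 3200 bp. By length alone it was 1.18% for regions of 200 to 600 bp and 4.11% for those of at least 3000 bp, so the number of words and length moved together. The excess of long regions was not present without the Poisson bound (4.56% of those of at least 3000 bp, beside 5.24% of all) or within GC strata by limma (4.52% beside 4.81%), and was present with DESeq2 (3.41% beside 1.52%) and relative to centred input (6.95% beside 5.87%).

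Among the classes by length, GC content and LINE-1 words, GC-rich regions were called most often. Of 1026 regions with at least 45% GC, 66 (6.43%) were called, 17 higher and 49 lower in ethanol, with a median log2 fold change of -0.03. Their input was called in 40 of 923 (4.33%, beside 2.06% of all regions), 25 higher and 15 lower. With regions scaled within GC strata, limma called 64 (6.24%, beside 4.81% of all regions in that fit), 26 higher and 38 lower. The share was 7.99% beside 5.24% of all regions without the Poisson bound, and 5.46% beside 1.52% with DESeq2 (12 higher and 44 lower). Relative to centred input, limma called 133 regions (12.96%, beside 5.87% of all regions), 32 of them higher and the others lower. Without female water replicate 2, edgeR called 47 (4.58%, beside 2.17% of all regions in that fit), 12 higher and 35 lower. By chromosome, chromosome 7 had 46 higher and 19 lower calls of 2207 regions and chromosome 8 had 7 higher and 34 lower of 1218 (2.95% and 3.37% called, beside 2.32% of all regions), whereas their medians were 0.01 and -0.01. These classes were singled out after their values were seen, and neighbouring regions often lie in 1 island and are not independent.

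**Figure D4:**
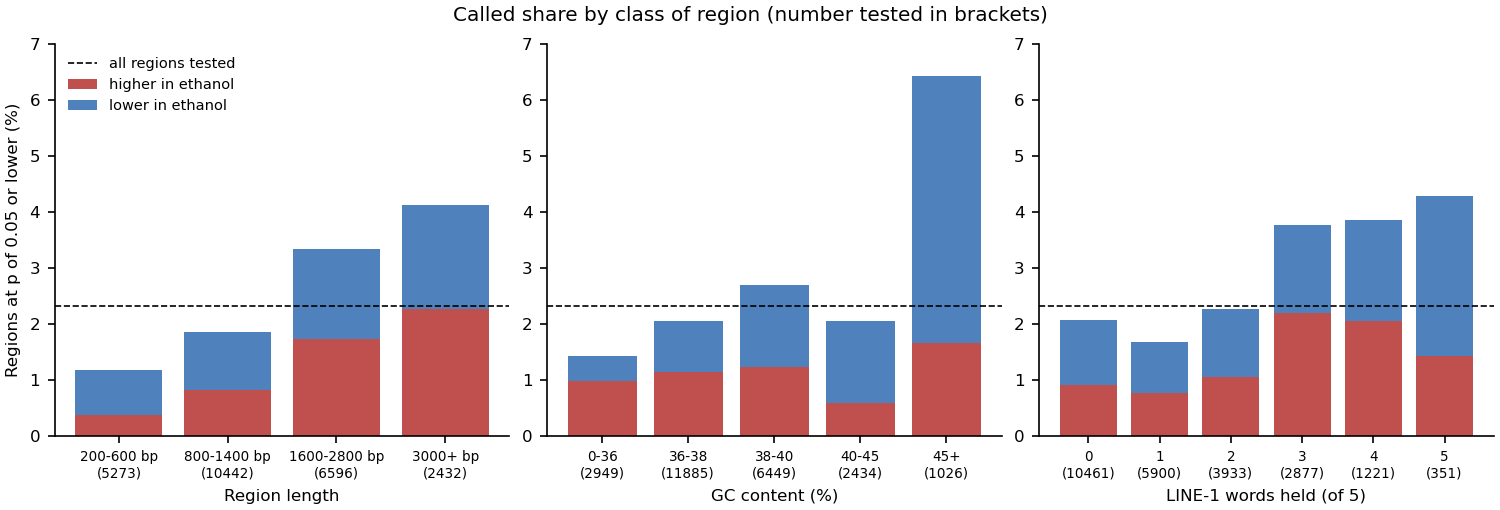
Share of tested regions at an unadjusted p of 0.05 or lower (edgeR), higher (red) and lower (blue) in ethanol, by region length, GC content and number of LINE-1 words, with the number tested in brackets. The dashed line is the 2.32% of all regions, and regions of at least 45% GC reached 6.43%.

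Regions in genes were read next, since the study asked about synaptic and myelin genes. A gene body was overlapped by 4291 tested regions, of which 39 were higher and 64 lower (2.4% called), and 6 of 201 regions within 2 kb of a start were called (2.99%), beside 2.32% of all regions. Of 43 regions in 12 glutamate receptor genes 1 was called (2.33%, beside 2.32% of all regions), an intronic region of the kainate receptor gene Grik2 (chr10:49398201-49399800). It had 22.8 to 39.3 CPM in ethanol pools (median 28.8) and 21.7 to 28.7 in water pools (median 25.4). The groups overlapped, with 6 of 12 ethanol pools above every water pool, and the log2 fold change was 0.25 (SE 0.08, edgeR p of 0.00670), beside 0.13 in the input. Regions in Grik1 (0.11, edgeR p of 0.0678) and Grm3 (-0.13, edgeR p of 0.0737) were not called.

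None of 9 regions in GABA-A receptor genes, 34 in potassium channel genes and 10 in ephrin receptor genes was called by edgeR (2.32% of all regions). The lowest p-values were those of Gabrg3 (0.222), Kcnip4 (0.0920) and Epha6 (0.0528, with a log2 fold change of -0.18 and an input difference of -0.34). Among 154 regions in 21 genes of synaptic adhesion 2 were called, in introns of Cntnap5b (-0.21, SE 0.09, edgeR p of 0.0213) and of the scaffold gene Dlg2 (0.14, SE 0.07, edgeR p of 0.0409). The Cntnap5b region had 20.3 to 26.2 CPM with ethanol and 21.9 to 37.8 with water, so the groups overlapped.

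Myelin genes had little to measure. Of 25 genes of myelin and the oligodendrocyte lineage only Sox6, a transcription factor of precursor cells, and Ugt8a, which makes galactocerebroside, held shared regions, 4 in all and none called, beside 2.32% of all regions (lowest edgeR p of 0.172, in Sox6). That Sox6 region had 16.7 to 21.7 CPM with ethanol and 16.4 to 27.0 with water. No shared region lay in the body of any of 18 neuron or 10 astrocyte marker genes, and 1 region lay in a microglia marker (Itgam, log2 fold change -0.06). Endothelial marker genes also had 4 tested regions, none called, beside the same 2.32%. Of the genes that write, erase or bind the mark, only Kdm4d, a demethylase gene, had a tested region (log2 fold change 0.04, SE 0.07, edgeR p of 0.539).

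Gene clusters known to carry H3K9me3 held few calls, and their shares were not tested against the 2.32% of all regions. In zinc-finger genes 4 of 196 regions were called (2.04%), with a median log2 fold change of 0.01. The intronic region of Zfp369, chr13:65283001-65284000, had 12.2 to 18.1 CPM in ethanol pools (median 14.4) and 14.9 to 20.3 in water pools (median 17.7). Its log2 fold change was -0.30 (SE 0.09, edgeR p of 0.00218), with -0.26 in the input. Zfp984 (-0.23) and Zfp989 (-0.15) were lower and Zfp990 (0.11) was higher, and relative to centred input Zfp984 changed sign to 0.15 (limma p of 0.0403). Zinc-finger regions had the highest ChIP reads per input read of the lists with over 10 regions (median 2.24, against 1.64 over all regions).

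In olfactory receptor genes, 2 of 40 regions were called (5%, beside 2.32% of all regions), in Olfr872 (0.15) and Olfr77 (0.21). In vomeronasal receptor genes, 3 of 168 were called (1.79%; Vmn2r82, Vmn2r114 and Vmn2r-ps130), with 2 lower and 1 higher, and in clustered protocadherin genes 0 of 8 (edgeR). The exonic region of Olfr77 had 10.8 to 21.2 CPM with ethanol and 10.4 to 15.3 with water.

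The regions with most reads per kb had about as many input as ChIP reads. The region chr2:98666201-98667400 over Gm10800 held 33963 ± 10458 CPM with ethanol and 34204 ± 8935 CPM with water, or 70205 ChIP and 72222 input reads per kb on average. Its log2 fold change was 0.01 (SE 0.17, edgeR p of 0.977), with -0.23 in males and 0.24 in females (edgeR interaction p of 0.166). Those in Chl1 and near Rpusd4 had log2 fold changes of 0.02 and 0.01 (SE 0.15 and 0.08).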

How the data were processed

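Chromatin of each pool was precipitated for H3K9me3 and sequenced beside an input library. The authors trimmed reads with CutAdapt, aligned them to GRCm38 with Bowtie2 2.4.1, discarded reads that mapped to several places or to blacklisted sites, and used SICER (window 200 bp, gap 400 bp) to find islands of each library over its input. The deposited read counts per island are whole ChIP and input reads with no normalization. The authors' p-values and q-values (FDR) and fold ratio per island compare ChIP with scaled input, and the deposited lists were not filtered on them. The fold ratio was used here only for its library constant, and the FDR only for the stricter lists.

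Island counts were apportioned to shared regions by overlapped length and rounded. The part of an island that a region made up was 17.4% at the median in the library where it was smallest, so a value is an island average, and 55.0% of tested regions shared an island with another region. Mapping of DBA/2J reads to the C57BL/6J reference was not tested. Regions were filtered with filterByExpr, scaled by TMM and tested with edgeR 4.0.16 (quasi-likelihood, sex as a block, Benjamini-Hochberg adjustment) in R 4.3.3. DESeq2 1.42.0, limma 3.58.1 and the settings of the closing section were alternatives. Library levels were compared by exact permutation within sex (213444 arrangements). Tests were tried on simulated data, and the outcome is not reported here. Pools are separate groups of mice. No pair of the 231 pairs of libraries was identical (lowest chi-square 1.08 per degree of freedom, on apportioned counts). Genes came from GENCODE vM21, and regions were named by gene body, otherwise by the nearest start. Sequences and repeat masking came from the RefSeq GRCm38.p6 genome, and none is printed from chromosome 18.

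Named regions were the 10 of smallest p-value each way, the 3 of smallest p-value per gene list, the 3 with most reads per kb and all called regions of the lists. Single regions of 1 kind of sequence that this rule names are not reported here, and none was put in their place. They stay in all counts over regions. Regions, gene lists and this rule were chosen with earlier results of these data known. The LINE-1 words and the edgeR test without its Poisson bound were chosen after values were seen. Tables and plots were made in Python 3.11.15 with scipy 1.17.1, pandas 2.3.3, numpy 2.4.6 and matplotlib 3.10.9.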

Additional observations from a re-analysis of the deposited data

Results flagged for a closer look

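Libraries that stood apart within their group of 5 or 6 were found by the gap to the nearest library relative to the range of the group. In 104 such groups (28 of library levels and 76 of the 19 leading regions) 6 were found, and chance alone gives about 1 in 20 groups. Male ethanol replicate 4 had 13.16 M ChIP reads in islands (next 7.85 M), 2.33 ChIP reads per input read in shared regions (next 1.46) and 102.2 ChIP reads per kb of shared region (next 72.2). Female ethanol replicate 1 had 7.42 M ChIP reads in islands (next 6.64 M).

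In single regions, female ethanol replicate 6 had 16.7 CPM near Gm10772 (next 11.97). In the intronic Nlrp4b region, male water replicate 1 had 58.28 CPM and the next male water pool 56.2, a small gap in a group of narrow range.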

How the results depend on the processing

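No H3K9me3 region passed an adjusted p of 0.05 in any setting tried with edgeR, DESeq2 or limma. The number at the unadjusted threshold, 575, was 377 with DESeq2, 1273 with total aligned reads, 1238 with cyclic loess, 1190 within GC strata, 2006 relative to input, 1453 relative to input with centring, and 1296 without the Poisson bound (added after seeing the data). Fewer regions were tested with islands at an FDR of at most 0.01 (105 of 4339), a mean of at least 100 reads (219 of 4710) and regions that make up at least 50% of every island (44 of 1152). The interaction gave 306 with DESeq2 and 99 of 4351 with the stricter islands, and the input 284 with DESeq2. Leaving out each library gave 537 to 638 regions. With the replicate number as a block 571 were called. The numbers did not pair the samples (correlations of -0.041 to 0.034, best with the own number in 1 of 10).

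The difference in the share of ChIP reads in shared regions was 0.0195 points in males alone and -3.69 in females alone, against -1.83 over both sexes (-2.53 to -0.821 when each library was left out). ChIP reads per input read differed by -0.00154 to 0.0967 when each library was left out, and the sign changed without male ethanol replicate 4. Of the 30 called regions named here, none changed sign when a library was left out, and 84 of 660 such refits kept the direction but not the threshold. Under other settings 78 of 440 did so, and 15 changed sign. Division by input without centring moved the median of all regions by 0.11, and limma then gave the opposite sign for 9 lower regions, in Gab2 (0.0341), near Gm6356 (0.12), near Vmn2r24 (0.14), near Gm49339 (0.12), in Vmn2r82 (0.0862), in Vmn2r114 (0.103), in Zfp369 (0.0769), in Zfp989 (0.0947) and in Zfp984 (0.25). With centring as well, it did so in Olfr872 (-0.0149), near Pcdha1 (-0.0455), near Gm6356 (0.0129), near Vmn2r24 (0.0392), near Gm49339 (0.0160) and in Zfp984 (0.15). Assigning regions to the nearest start gave 5 called of 169 regions for glutamate receptors (2.96%), 12 of 584 for synaptic adhesion (2.06%), 21 of 811 for zinc-finger genes (2.59%) and 19 of 972 for olfactory receptors (1.96%), in place of 1 of 43, 2 of 154, 4 of 196 and 2 of 40, beside 2.32% of all regions. Vomeronasal receptors had 32 of 1113 (2.88%). Lists with no call by gene body had 1 of 45 (GABA-A and glycine receptors), 1 of 259 (potassium channels), 3 of 119 (ephrins), 2 of 35 (protocadherins) and 1 of 14 (endothelial markers). Those of the H3K9 methylation machinery, myelin, neurons and astrocytes had none. Called regions differed by a median of 0.18 on the log2 scale, beside a median SE of 0.09 over all tested regions. The unadjusted threshold itself largely sets that size, so differences well below it could go uncalled in most regions. After adjustment no difference of any size was called.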

Other observations

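Spread between pools, whatever their treatment, was uneven over the genome. In the median tested region the highest of the 22 pools had 1.502 times the lowest. In 322 of 24743 regions the ratio was at least 3, and in 269 of these the input ratio was at least 3 as well. The same pool was highest in ChIP and in input in 117 of the 322. Of the 322, 29 were called for ethanol, beside 2.32% of all regions (575 of 24743).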
